A study of Mus musculus with 20 samples.

Results

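The genes described here are 56 mouse genes of mitosis, the spindle and the kinetochore, taken by name from 48795 Ensembl genes in a table of log2-transformed normalized counts. They were listed by what their products do in G2 and M phase and not by a threshold on a measured value. Earlier results of these data were known when the list was made. Each of the 56 names matched 1 row of the table, and all 56 passed the filter on low values (10 or more normalized counts on average), as 15304 genes did. By role they comprised 9 G2/M cyclins, kinases and phosphatases, 10 regulators of the spindle checkpoint and of the anaphase-promoting complex, 8 proteins of the centromere and outer kinetochore, 4 subunits of the chromosomal passenger complex, 10 kinesin motors, 5 spindle assembly and microtubule-binding proteins, 3 cytokinesis regulators and 7 proteins of mitotic chromosomes. None of them lies on mouse chromosome 16 (Mmu16).

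RNA from 20 whole mouse hearts of E13.5 embryos was sequenced, 10 from wild-type (WT) embryos, 5 from Dp1Tyb embryos and 5 from embryos labelled Dp1TybDyrk1a+/+/-. Dp1Tyb mice are a model of Down syndrome in which the stretch of Mmu16 from Lipi to Zbtb21 is duplicated in tandem on 1 homologue, so that its genes, Dyrk1a among them, are present in 3 copies. The Dp1TybDyrk1a+/+/- embryos carry that same duplication together with a null allele of Dyrk1a (Dyrk1atm1Mla), which leaves 2 functional copies of this gene. Both mutant genotypes thus share the duplication and differ by design in Dyrk1a. The study asked whether the third copy of Dyrk1a, a protein kinase, is needed for the changes that the duplication brings. All strains were on a C57BL/6J background, each heart came from a separate embryo, and hearts are numbered here within a genotype. The Dp1TybDyrk1a+/+/- strain carries the null allele on the duplicated chromosome and was bred apart from the Dp1Tyb strain, with its own WT littermates. The labels do not tie WT hearts to the litters of either strain, so all 10 WT hearts entered both comparisons with WT.

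Entry into mitosis is driven by cyclin B bound to the kinase CDK1, which CDC25 phosphatases activate and which Polo-like and Aurora kinases assist. Condensin and topoisomerase II then shape the chromosomes, kinesins build the bipolar spindle, and kinetochores on the centromeres attach chromosomes to microtubules. Until every kinetochore is attached, the spindle checkpoint restrains the anaphase-promoting complex, a ubiquitin ligase that destroys cyclin B and securin. Most of these genes are transcribed late in the cell cycle, when the MuvB core bound to B-MYB and FOXM1 occupies a promoter element called the cell cycle genes homology region (CHR), and in quiescent cells they are repressed by the DREAM complex through the same element. DYRK1A phosphorylates LIN52, a MuvB subunit, which favours DREAM assembly, and cardiomyocytes of the embryonic heart still divide. A whole heart is a mixture of cell types, and fewer dividing cells and less RNA per dividing cell cannot be told apart in its RNA.

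The promoters of members with decreased expression are shown because the CHR is the element that late cell cycle genes share. RefSeq promoter windows (GRCm38.p6, the build of the authors' alignment), from 250 bases before to 50 bases after a transcription start, were found for 48 members. Smc4, Cdc25c, Ccna2, Incenp, Spc24, Aurkb, Tpx2 and Kif20a had no window. The 250 bases before the start were searched on both strands for TTTGAA and TTCGAA, the core letters of a CHR, and for CCAAT, the letters bound by NF-Y. TTCGAA reads the same on both strands and was counted once. A CHR lay in the windows of 19 of the 48 members, which is 39.6%, against 14.6% of the 11103 tested genes with a window and 19.6% of all 27025 genes with one. CCAAT was found for 34 members (70.8%) and for 40% of tested genes, and both kinds of letters for 17 members (35.4%) and 5.63% of tested genes. Within 50 bases of the start, a CHR was found for 11 members (22.9%) and for 2.13% of tested genes. Of the members that passed the test in a comparison given below, 9 of the 22 with a window held a CHR (40.9%), and of the members that passed in none, 10 of 26 did (38.5%).

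Printed here are the bases from 150 to 11 before the start for the members with the smallest adjusted P-values in Dp1Tyb compared to WT hearts among those that passed a test and held a CHR, 5′ to 3′ on the strand of the gene, with CHR and CCAAT letters of either strand in capitals. The stretches lie at chr19:37376232-37376371 (plus strand) for Kif11, chr7:80294326-80294465 (plus) for Prc1, chr9:122950931-122951070 (plus) for Kif15, chr11:99024200-99024339 (minus) for Top2a and chr5:45669775-45669914 (plus) for Ncapg.
Kif11: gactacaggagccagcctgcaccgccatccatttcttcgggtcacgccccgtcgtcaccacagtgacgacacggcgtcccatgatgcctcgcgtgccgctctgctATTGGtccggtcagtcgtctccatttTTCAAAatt
Prc1: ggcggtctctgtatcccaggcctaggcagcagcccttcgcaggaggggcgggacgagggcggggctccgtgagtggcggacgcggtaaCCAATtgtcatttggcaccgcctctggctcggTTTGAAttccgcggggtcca
Kif15: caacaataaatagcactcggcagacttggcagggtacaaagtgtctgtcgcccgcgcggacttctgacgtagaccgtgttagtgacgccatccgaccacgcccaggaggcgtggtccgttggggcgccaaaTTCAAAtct
Top2a: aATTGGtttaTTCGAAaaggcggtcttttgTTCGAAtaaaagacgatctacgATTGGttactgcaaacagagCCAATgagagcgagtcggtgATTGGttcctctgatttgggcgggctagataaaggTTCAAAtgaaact
Ncapg: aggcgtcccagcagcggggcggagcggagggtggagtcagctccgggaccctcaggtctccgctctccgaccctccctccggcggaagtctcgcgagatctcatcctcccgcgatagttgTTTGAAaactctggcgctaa
In all 5 of these promoters a CHR began within 30 bases before the start that the window was taken from: at 19 bases in Kif11 and Kif15, 23 in Top2a and 30 in Prc1 and Ncapg. The last 21 bases printed for Prc1 and the last 24 for Ncapg lie inside the gene, beyond its outer start. In both genes the CHR is among those bases. The Kif15 and Ncapg stretches hold no CCAAT, while Kif11 and Prc1 hold 1 each, 45 and 62 bases before the start. Kif2c also held a CHR, 103 bases before the start in its window, but that window lay inside the gene, 3702 bases beyond its outer start, and is not printed. Such letters are a description of the sequence, and binding of a factor was not measured.

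Dyrk1a itself was measured first. Its log2 normalized count was 11.28 at the lowest, 11.36 at the median and 11.43 at the highest in 10 WT hearts, 11.67, 11.65, 11.66, 11.71 and 11.75 in Dp1Tyb hearts 1 to 5, and 11.70, 11.85, 11.78, 11.75 and 11.74 in Dp1TybDyrk1a+/+/- hearts 1 to 5. Every heart of both mutant genotypes was above every WT heart, with log2 fold changes of 0.32 (SE 0.027, limma adjusted P-value 6.22e-08) for Dp1Tyb and 0.39 (SE 0.027, adjusted P-value 2.18e-09) for Dp1TybDyrk1a+/+/-. The table gives 1 value per gene and does not separate the transcript of the null allele from that of the functional copies, so this level does not check the genotype label of the Dp1TybDyrk1a+/+/- hearts, which are named by their label throughout.

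The libraries were run in lanes 3, 6 and 7, and hearts of each genotype were in each lane. WT heart 6 and Dp1TybDyrk1a+/+/- heart 2 stood apart from the rest, with limma quality weights of 0.258 and 0.0941 against 0.708 or more in the other 18 hearts. Embryo sex is not in the labels. Xist, which is transcribed from the inactive X chromosome of female cells, was at 12.98 or more in 3 WT hearts, 4 Dp1Tyb hearts and 1 Dp1TybDyrk1a+/+/- heart, and at 8.13 or less in the others. Cell type markers of the heart were present in every library. Summed normalized counts of 6 cardiomyocyte markers ran from 266000 to 336000 in WT, from 258000 to 297000 in Dp1Tyb and from 278000 to 310000 in Dp1TybDyrk1a+/+/- hearts. The same sums for 6 fibroblast and cushion mesenchyme markers ran from 96500 to 141000, from 122000 to 143000 and from 100000 to 144000. The ranges of both sums overlapped between all 3 genotypes. In limma's fit none of the cell type markers tested passed in any comparison, but some lists were displaced together in Dp1Tyb hearts. The 6 fibroblast and cushion mesenchyme markers all had log2 fold changes above 0, with medians of 0.0852 compared to WT and 0.144 compared to Dp1TybDyrk1a+/+/-. Cardiomyocyte markers had medians of -0.0762, with 4 of 6 below 0, and -0.117, with 5 of 6 below 0, which are of similar size to the medians of the 56 members (-0.0966 and -0.118). Erythroid markers had medians of 0.202 and 0.139 over 7 genes. The part of cell composition in the members' values was not tested.

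To ask what the duplication does to mitosis genes, Dp1Tyb hearts were compared to WT hearts. Of the 56 members, 20 were decreased at an adjusted P-value under 0.05 in limma's fit over all 20 hearts, which is 35.7% of them, and 0 were increased. Over all 15304 tested genes, 1.27% were called lower and 1.81% higher. The decreased members were Bub1, Kif11, Prc1, Smc4, Ccna2, Racgap1, Fbxo5, Kif15, Kif2c, Top2a, Plk4, Ttk, Spc25, Ncapg, Ccnb2, Cenpi, Kif18a, Kif23, Ncapd2 and Smc2. Log2 fold changes of all 56 members ran from -0.21 to 0.03 with a median of -0.0966, a median level that decreased by 6.48%, whereas the median over all tested genes was -0.00187. The log2 fold change was below 0 for 55 members, against 51.5% of tested genes, and Pttg1, which encodes the separase inhibitor securin, was the exception at 0.03. At an unadjusted p under 0.05 there were 45 members lower (7.8% of tested genes) and 0 higher (7.77% of tested genes).

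In 14 members every Dp1Tyb heart was below every WT heart, which held for 1.12% of tested genes, and in 0 members was every Dp1Tyb heart above (1.51% of tested genes). The 14 were 11 of the called members (Ccna2, Plk4, Bub1, Fbxo5, Kif11, Kif18a, Kif2c, Prc1, Racgap1, Smc2 and Smc4) and Tpx2, Nusap1 and Mki67, which did not pass in the fit over all 20 hearts. Tpx2, Nusap1 and Mki67 did pass in a fit of only WT and Dp1Tyb hearts, where 34 members and 2.35% of tested genes were called lower. They also passed with quality weights, and without WT heart 6 and Dp1TybDyrk1a+/+/- heart 2, but not with lane or Xist as a covariate. Dp1Tyb heart 1 had 26 of the 56 members below every WT heart, and hearts 2 to 5 had 34, 43, 37 and 30. Of all tested genes, 11% to 13.3% lay below every WT heart in a Dp1Tyb heart, and 10.5% to 12.5% lay above. No Dp1Tyb heart had a member above every WT heart.

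The mean log2 value over the 56 members was 10.488 ± 0.0239 over the 10 WT hearts, 10.391 ± 0.0238 over the 5 Dp1Tyb hearts and 10.503 ± 0.0353 over the 5 Dp1TybDyrk1a+/+/- hearts (mean ± SD). By heart the Dp1Tyb means were 10.416, 10.384, 10.355, 10.391 and 10.408, those of WT hearts ran from 10.452 to 10.537, and those of Dp1TybDyrk1a+/+/- hearts were 10.481, 10.536, 10.493, 10.543 and 10.461. All 5 Dp1Tyb hearts were thus below all 15 others, and the other 2 genotypes overlapped. The Dp1Tyb mean was -0.0953, -0.094 and -0.105 from the WT mean within lanes 3, 6 and 7. Within the hearts of high Xist it was -0.104 from WT (4 and 3 hearts) and within those of low Xist -0.0931 (1 and 7 hearts). Of all 56 members, 55, 51 and 55 were lower in Dp1Tyb than in WT hearts within lanes 3, 6 and 7. These lanes held 2 and 4, 2 and 4, and 1 and 2 hearts. Within high and low Xist 55 and 52 members were lower. The called members were called on these same hearts, so their direction within such subsets adds no support. With Xist as a covariate 12 members passed, and with lane and Xist together 5 did, namely Bub1, Fbxo5, Kif11, Kif15 and Ncapd2.

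**Figure D1:**
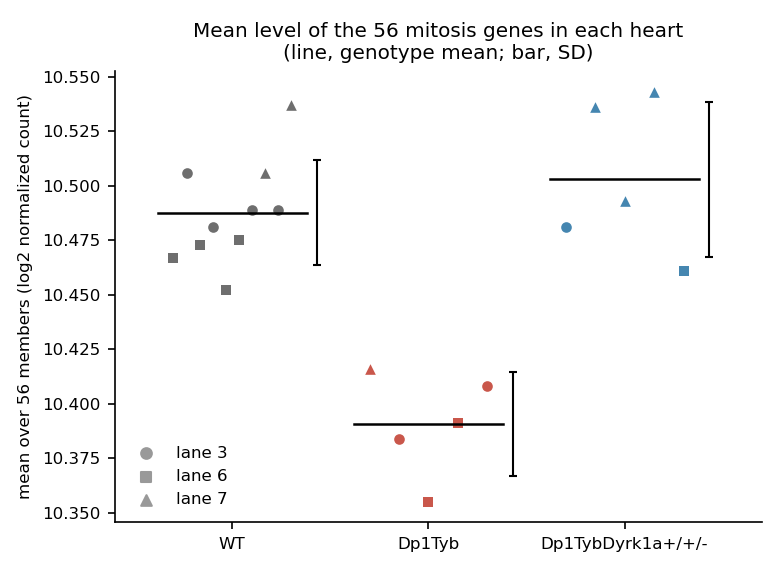
Mean log2 normalized count over the 56 mitosis genes (y axis) for each of the 20 hearts by genotype (x axis), with the sequencing lane as the point shape, the genotype mean as a line and the SD as a bar. The 5 Dp1Tyb hearts sit between 10.355 and 10.416, below the lowest WT heart at 10.452 and the lowest Dp1TybDyrk1a+/+/- heart at 10.461.

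To ask whether the third functional copy of Dyrk1a is needed for this, Dp1Tyb hearts were also compared to Dp1TybDyrk1a+/+/- hearts. This comparison shares the 5 Dp1Tyb hearts with the one above, so the pair are not independent. The genotypes compared also came from separately bred strains, and their hearts were split unequally over lanes and Xist levels. Strain cannot be told apart from the number of functional Dyrk1a copies here, and lane and Xist only in part. Here 17 members were decreased in Dp1Tyb hearts (30.4%), against 0.738% of tested genes called lower, and 0 were increased, against 0.425% called higher. They were Bub1, Smc4, Fbxo5, Prc1, Kif11, Ccna2, Mad2l1, Spc25, Birc5, Racgap1, Kif23, Kif20b, Smc2, Kif15, Ncapg, Plk4 and Cenpf. The median log2 fold change over the 56 members was -0.118 (range -0.29 to 0.06), against 0.00278 over all tested genes, and 51 members were below 0, against 48% of tested genes. In 28 members every Dp1Tyb heart was below every Dp1TybDyrk1a+/+/- heart, against 3.55% of tested genes, and in 0 above, against 2.1%. An unadjusted p under 0.05 was reached by 43 members on the lower side (10% of tested genes) and by 0 on the higher side (8.54%).

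The number of calls in this comparison depended on the fit. Of all 56 members, 54 were lower in Dp1Tyb hearts within high Xist (4 and 1 hearts) and 50 within low Xist (1 and 4 hearts). With lane as a covariate only Bub1 and Smc4 passed, with Xist only Bub1 and Fbxo5, and with both 0 passed. A fit of these 10 hearts alone called 0 members and 1 gene lower of all 15304, while 40 members had an unadjusted p under 0.05. Without WT heart 6 and Dp1TybDyrk1a+/+/- heart 2, 29 members passed against this genotype and 43 against WT. Leaving out 1 heart at a time gave from 2 calls, without Dp1Tyb heart 3, to 26, without WT heart 6. The median log2 fold change over members stayed between -0.13 and -0.108 in these fits. The share of all tested genes called in each is not given here. A shift in calls over all genes therefore cannot be told apart from one particular to the members. Calls numbered 8, 6, 4 and 10 without Dp1Tyb hearts 1, 2, 4 and 5, 5 without Dp1TybDyrk1a+/+/- heart 3 or heart 4, and 10 or 11 without WT hearts 1, 2, 3, 5, 7 or 8. Against WT the calls ran from 10, without Dp1Tyb heart 3, to 36, without Dp1TybDyrk1a+/+/- heart 2, and were 11 and 13 without Dp1Tyb hearts 2 and 4 and 13 without WT heart 10. Bub1 and Smc4 passed against both genotypes in all 20 of these fits. Ccna2, Fbxo5, Kif11, Kif15, Kif2c, Prc1 and Racgap1 did so against WT. Some of the other calls were lost in most fits. Against WT, Kif18a, Ncapd2 and Smc2 each lost theirs in 14 fits, Kif23 in 13 and Cenpi in 12. Against Dp1TybDyrk1a+/+/-, Cenpf lost its call in 16, Kif15 in 15, Ncapg and Plk4 in 14, and Kif20b, Kif23 and Smc2 in 13. The remaining calls were lost in fewer fits. These ran from 1 (Top2a) to 7 (Ccnb2) against WT and from 1 (Fbxo5 and Prc1) to 7 (Racgap1) against Dp1TybDyrk1a+/+/-.

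In Dp1TybDyrk1a+/+/- compared to WT hearts, 0 members passed limma's test in either direction. Over all tested genes 0.0849% were called lower and 0.627% higher. At an unadjusted p under 0.05 there were 0 members lower (4.61% of tested genes) and 2 higher (5.02% of tested genes), Kif20b at 0.11 (SE 0.048) and Mad2l1 at 0.08 (SE 0.031). Log2 fold changes ran from -0.08 to 0.11 with a median of 0.0184, and 15 members were below 0, against 52.6% of tested genes. In no member did the hearts of these genotypes separate, which 0.0784% of tested genes did on the lower side and 0.562% on the higher side. Of the 5 Dp1TybDyrk1a+/+/- hearts 3 were in lane 7, and the 2 WT hearts of that lane had the mean 10.537, the highest among WT hearts, and 10.506. Within lanes 3, 6 and 7 the mean over members differed by -0.00992, -0.0057 and 0.00267, and with lane as a covariate the median log2 fold change turned to -0.00196. The 95% intervals give the size of a difference from WT that these hearts could hide. The narrowest among members was that of Bub1 (-0.01 to 0.07), and the widest was that of Mki67 (-0.10 to 0.26). Those of Ccna2 and Kif11 were each -0.04 to 0.08, and that of Kifc1 was -0.20 to 0.04.

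**Figure D2:**
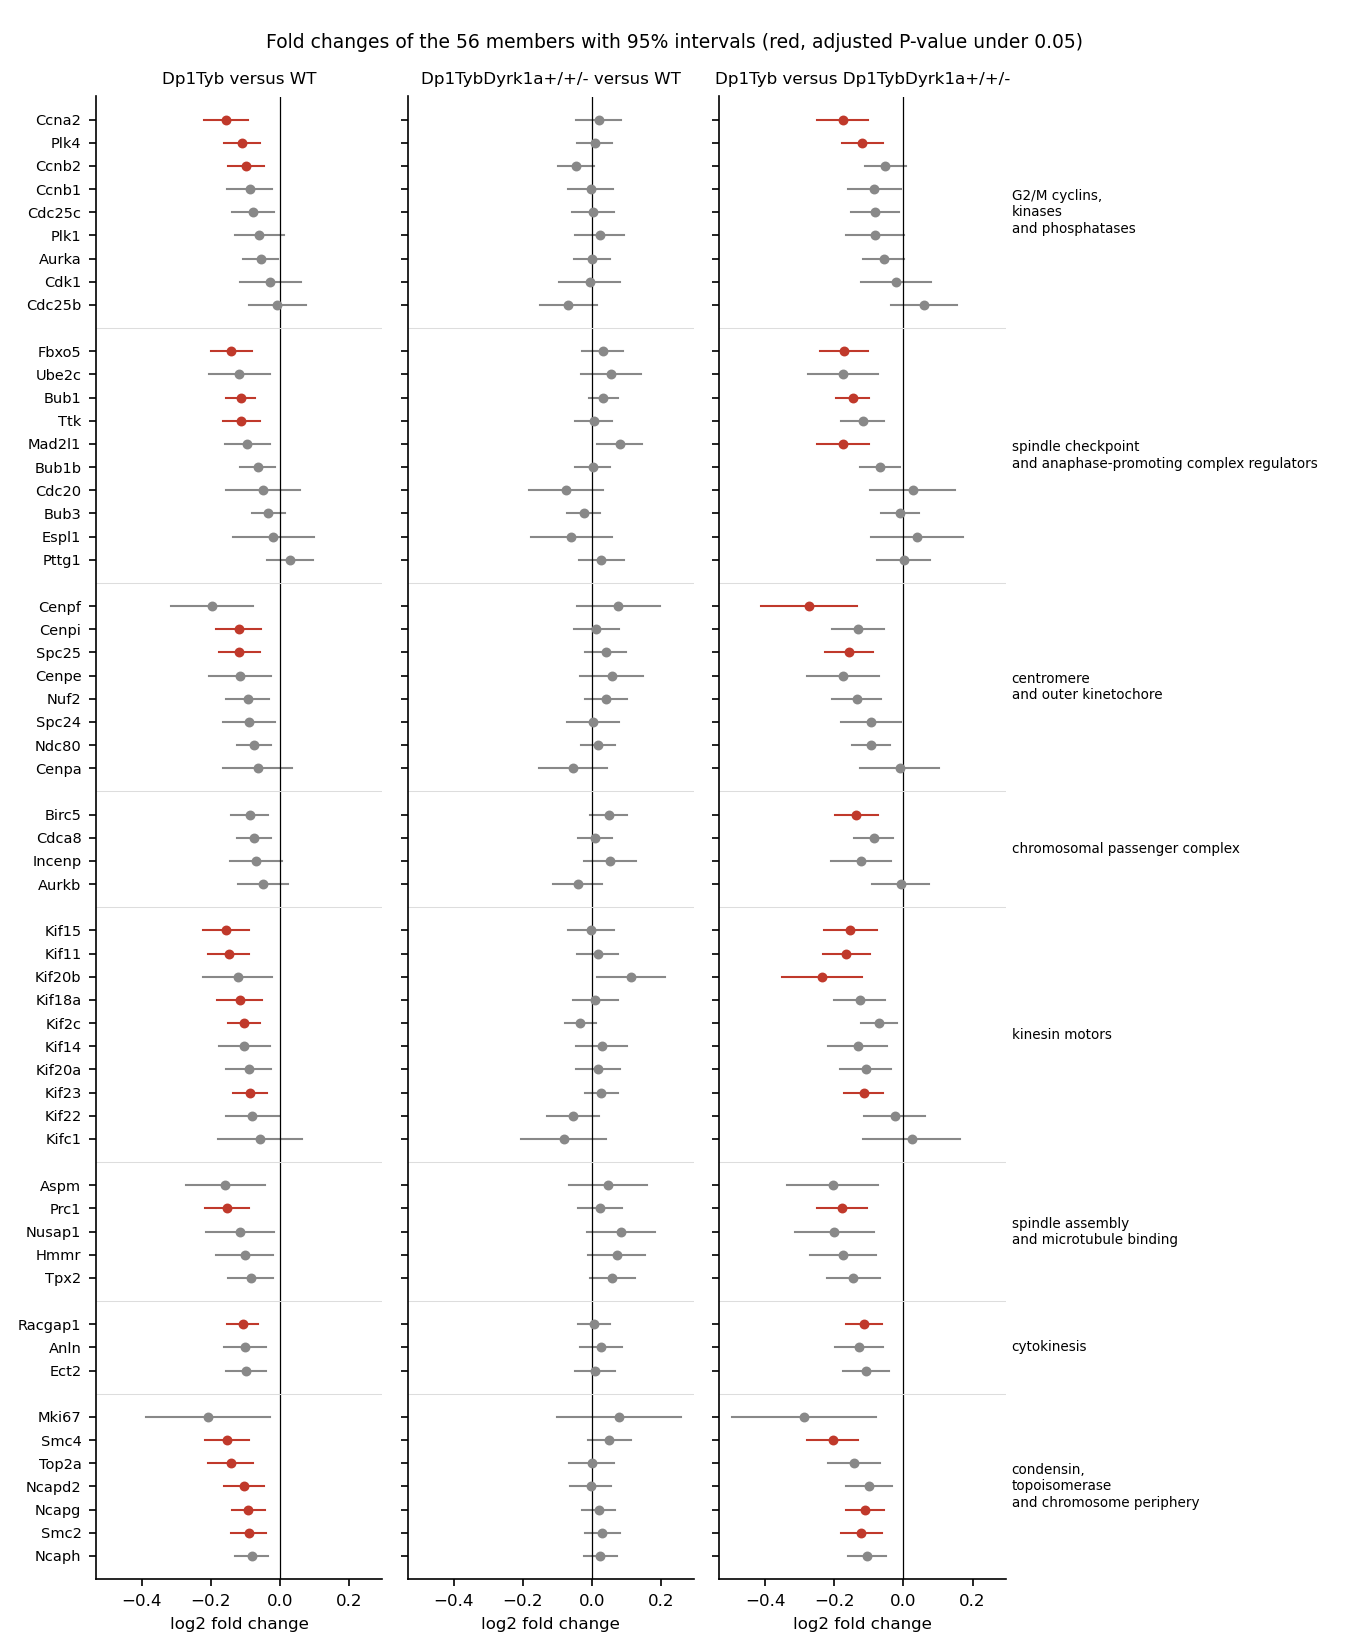
Log2 fold change (x axis) of each of the 56 members (y axis, grouped by role) in the 3 comparisons, with its 95% interval as a line and red for an adjusted P-value under 0.05. The first panel holds 20 red points and the last 17, all left of 0, and the middle panel, Dp1TybDyrk1a+/+/- compared to WT, holds 0 and has a median of 0.0184.

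Among the 9 G2/M cyclins, kinases and phosphatases, 3 were decreased compared to WT (Ccna2, Plk4 and Ccnb2) and 2 compared to Dp1TybDyrk1a+/+/- hearts (Ccna2 and Plk4), and their median log2 fold changes were -0.0781 and -0.0813. Ccna2 (ENSMUSG00000027715, chr3:36564865-36573038, GRCm38.p6) encodes cyclin A2, which binds CDK2 in S phase and CDK1 in G2. Its log2 normalized count was 12.09 at the lowest, 12.14 at the median and 12.27 at the highest in WT hearts. In Dp1Tyb hearts 1 to 5 it was 12.04, 11.97, 11.97, 12.01 and 12.03, and in Dp1TybDyrk1a+/+/- hearts 1 to 5 it was 12.10, 12.25, 12.20, 12.24 and 12.14. All 5 Dp1Tyb hearts lay below both other genotypes, which overlapped each other. The level decreased by 10.3% compared to WT (log2 fold change -0.16, SE 0.031, adjusted P-value 0.00577) and by 11.5% compared to Dp1TybDyrk1a+/+/- (-0.18, SE 0.036, adjusted P-value 0.0231). Plk4, the kinase that starts centriole duplication, had log2 fold changes of -0.11 and -0.12, and Ccnb2, which encodes cyclin B2, of -0.10 compared to WT and -0.05 compared to Dp1TybDyrk1a+/+/-, the last with an adjusted P-value of 0.337.

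The central pair of mitotic entry did not pass. Ccnb1, which encodes cyclin B1, was 11.32, 11.44 and 11.55 at the lowest, median and highest in WT hearts, 11.37, 11.37, 11.33, 11.38 and 11.37 in Dp1Tyb hearts, and 11.43, 11.37, 11.47, 11.54 and 11.42 in Dp1TybDyrk1a+/+/- hearts. The Dp1Tyb values lay at the lower end of the WT values and overlapped them through WT heart 6, with a log2 fold change of -0.09 (SE 0.031, adjusted P-value 0.154). With quality weights, and without WT heart 6 and Dp1TybDyrk1a+/+/- heart 2, Ccnb1 passed compared to WT. The share of tested genes called lower was 4.6% and 3.73% in these fits. Compared to Dp1TybDyrk1a+/+/- hearts, Ccnb1 passed with quality weights, where 4.57% of tested genes were called lower. Cdk1, its kinase partner, was 10.81, 10.97 and 11 at the lowest, median and highest in WT hearts, 10.85, 10.96, 10.88, 10.98 and 10.95 in Dp1Tyb hearts, and 10.96, 10.72, 11.03, 11.05 and 10.97 in Dp1TybDyrk1a+/+/- hearts. The 3 genotypes overlapped throughout, and the 95% interval of its log2 fold change in Dp1Tyb compared to WT hearts was -0.12 to 0.06 (adjusted P-value 0.825). Plk1, a kinase of mitotic entry and spindle assembly, was 10.23, 10.33 and 10.36 in WT hearts by the same measures, 10.33, 10.23, 10.23, 10.24 and 10.26 in Dp1Tyb hearts, and 10.31, 10.48, 10.28, 10.41 and 10.21 in Dp1TybDyrk1a+/+/- hearts, with a log2 fold change from WT of -0.06 (SE 0.034, adjusted P-value 0.434). Cdc25b, Cdc25c and Aurka, which encodes Aurora A of the spindle poles, did not pass in any comparison, with log2 fold changes from WT of -0.01, -0.08 and -0.06 in Dp1Tyb hearts.

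Of the 10 regulators of the spindle checkpoint and the anaphase-promoting complex, Bub1, Fbxo5 and Ttk were decreased compared to WT, and Bub1, Fbxo5 and Mad2l1 compared to Dp1TybDyrk1a+/+/-. Bub1 (ENSMUSG00000027379, chr2:127800197-127831859) encodes a checkpoint kinase of the kinetochore that phosphorylates histone H2A, and it had the smallest adjusted P-value among members in both comparisons. Its log2 normalized count was 10.52, 10.57 and 10.62 at the lowest, median and highest in WT hearts. The Dp1Tyb hearts had 10.46, 10.45, 10.44, 10.44 and 10.47, and the Dp1TybDyrk1a+/+/- hearts 10.57, 10.59, 10.62, 10.67 and 10.57. The Dp1Tyb values spanned a narrow range below every heart of the other genotypes. Compared to WT, Bub1 decreased by 7.59% (log2 fold change -0.11, SE 0.020, adjusted P-value 0.00207), and compared to Dp1TybDyrk1a+/+/- by 9.67% (-0.15, SE 0.023, adjusted P-value 0.00671). Fbxo5 (ENSMUSG00000019773, chr10:5799158-5805465) encodes EMI1, an inhibitor of the anaphase-promoting complex that lets cyclins accumulate. It was 9.22, 9.29 and 9.43 in WT hearts by the same measures, 9.12, 9.18, 9.13, 9.14 and 9.20 in Dp1Tyb hearts, and 9.32, 9.39, 9.31, 9.34 and 9.29 in Dp1TybDyrk1a+/+/- hearts. Again no Dp1Tyb heart reached the lowest heart of another genotype, and the level decreased by 9.30% (log2 fold change -0.14, SE 0.029, adjusted P-value 0.00738) and by 11.3% (-0.17, SE 0.033, adjusted P-value 0.0176).

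Ttk, which encodes the checkpoint kinase MPS1, had a log2 fold change of -0.11 compared to WT (adjusted P-value 0.0171) and of -0.12 compared to Dp1TybDyrk1a+/+/-, where it missed the threshold (0.0519). Mad2l1, which encodes MAD2, the inhibitor of CDC20, was at -0.09 compared to WT, where it did not pass (0.118), and at -0.18 compared to Dp1TybDyrk1a+/+/- (0.0242). Its Dp1TybDyrk1a+/+/- hearts were at 10.62, 10.79, 10.62, 10.68 and 10.54, and heart 2 was the highest of all 20 hearts. Cdc20, the co-activator that MAD2 binds, Espl1, which encodes separase, Pttg1 and the checkpoint protein Bub3 had log2 fold changes from WT of -0.05, -0.02, 0.03 and -0.03, and from Dp1TybDyrk1a+/+/- of 0.03, 0.04, 0.00 and -0.01, and none passed. Bub1b, which encodes BUBR1, and Ube2c, a ubiquitin-conjugating enzyme of the complex, were at -0.06 and -0.12 compared to WT, with adjusted P-values of 0.174 and 0.152. Ube2c was at -0.17 compared to Dp1TybDyrk1a+/+/- hearts, where it did not pass either.

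The 8 proteins of the centromere and outer kinetochore had a median log2 fold change of -0.105 compared to WT and of -0.134 compared to Dp1TybDyrk1a+/+/-, and all 8 were below 0 in both. Spc25, a subunit of the NDC80 complex that grips microtubules, passed in both (-0.12, adjusted P-value 0.0263, and -0.16, adjusted P-value 0.0269), Cenpi, of the constitutive centromere network, only compared to WT (-0.12, adjusted P-value 0.0391), and Cenpf, a large kinetochore protein, only compared to Dp1TybDyrk1a+/+/- (-0.27, adjusted P-value 0.0461). Cenpf was 12.13 in Dp1TybDyrk1a+/+/- heart 2 and between 11.71 and 11.84 in the other 4 hearts of this genotype. The other subunits of the NDC80 complex, Ndc80, Nuf2 and Spc24, did not pass, at -0.08, -0.09 and -0.09 compared to WT. Nor did Cenpe, a kinesin that moves chromosomes to the spindle equator (-0.12, adjusted P-value 0.174). Cenpa encodes the histone H3 variant that marks the centromere. It was 10.48, 10.69 and 10.79 at the lowest, median and highest in WT hearts, 10.67, 10.60, 10.60, 10.59 and 10.65 in Dp1Tyb hearts, and 10.65, 10.40, 10.68, 10.75 and 10.69 in Dp1TybDyrk1a+/+/- hearts. The genotypes overlapped, the 95% interval in Dp1Tyb compared to WT hearts was -0.16 to 0.03 (adjusted P-value 0.570), and the lowest values were those of WT heart 6 and Dp1TybDyrk1a+/+/- heart 2.

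The chromosomal passenger complex corrects wrong attachments and places the cleavage furrow, and none of its 4 subunits passed compared to WT. Aurkb, its kinase, was 9.35, 9.50 and 9.59 at the lowest, median and highest in WT hearts, 9.45, 9.44, 9.45, 9.40 and 9.47 in Dp1Tyb hearts, and 9.49, 9.30, 9.47, 9.49 and 9.50 in Dp1TybDyrk1a+/+/- hearts. These values overlapped, with a log2 fold change from WT of -0.05 (SE 0.034, adjusted P-value 0.548). Birc5, which encodes survivin, was 10.17, 10.22 and 10.31 in WT hearts by the same measures, 10.13, 10.19, 10.13, 10.12 and 10.10 in Dp1Tyb hearts, and 10.24, 10.32, 10.27, 10.34 and 10.18 in Dp1TybDyrk1a+/+/- hearts. It was decreased compared to Dp1TybDyrk1a+/+/- (log2 fold change -0.14, SE 0.030, adjusted P-value 0.0304), although Dp1Tyb heart 2 was above Dp1TybDyrk1a+/+/- heart 5, and it did not pass compared to WT (-0.09, SE 0.026, adjusted P-value 0.0754). Incenp, the scaffold, and Cdca8, which encodes borealin, were at -0.07 and -0.08 compared to WT. Birc5 and Cdca8 did pass compared to WT in a fit of only WT and Dp1Tyb hearts and with quality weights. They also did without WT heart 6 and Dp1TybDyrk1a+/+/- heart 2. These 3 fits called 2.35%, 4.6% and 3.73% of tested genes lower.

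**Figure D3:**
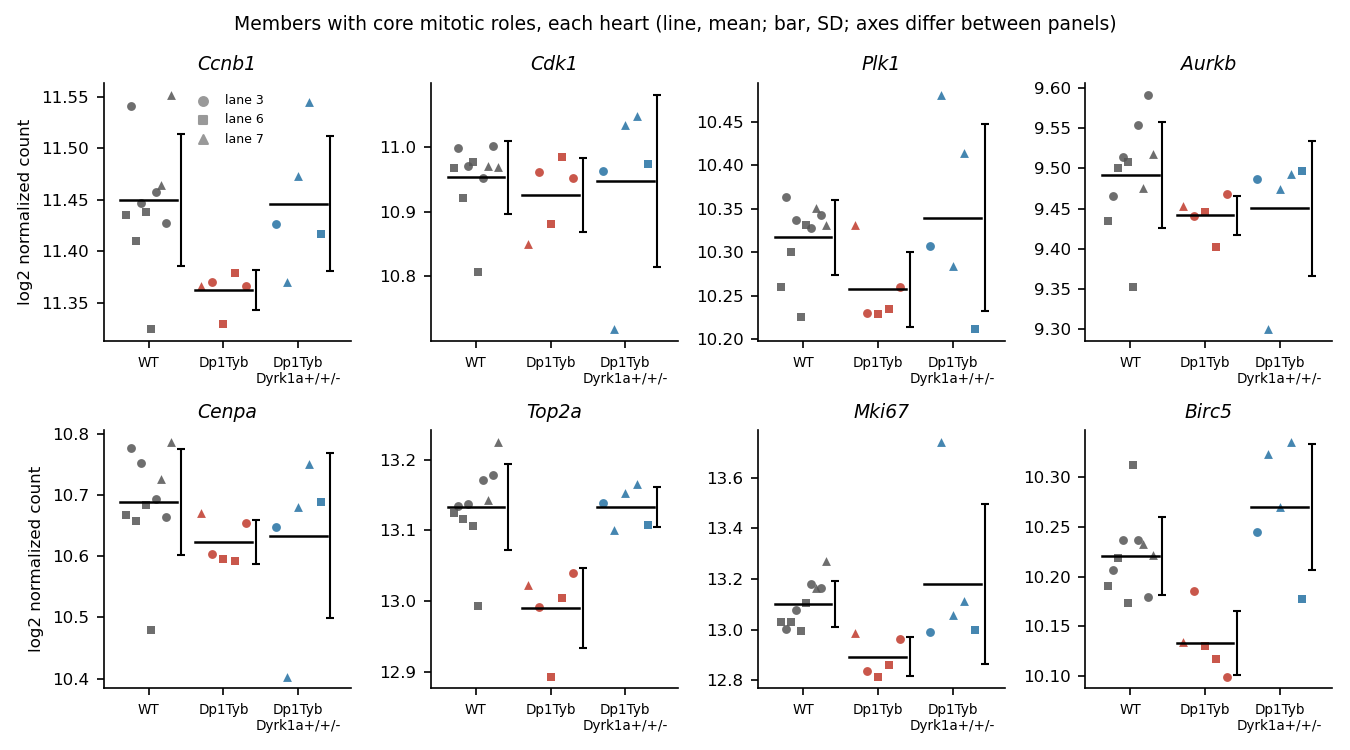
Log2 normalized count (y axis) in each of the 20 hearts by genotype (x axis) for 8 members with core mitotic roles, with the lane as the point shape, the mean as a line and the SD as a bar. In the fit over all 20 hearts only Top2a passed in Dp1Tyb compared to WT hearts, and only Birc5 compared to Dp1TybDyrk1a+/+/- hearts. For Cdk1, Aurkb and Cenpa the lowest point of all is Dp1TybDyrk1a+/+/- heart 2.

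Compared to WT, 5 kinesins passed, as many as among the proteins of mitotic chromosomes and more than in any other role. Of 10 motors, Kif11, Kif15, Kif2c, Kif18a and Kif23 were decreased compared to WT, and Kif11, Kif15, Kif20b and Kif23 compared to Dp1TybDyrk1a+/+/-, with median log2 fold changes of -0.104 and -0.121. Kif11 (ENSMUSG00000012443, chr19:37376382-37421863) encodes EG5, the motor that pushes the spindle poles apart. Its log2 normalized count was 11.56, 11.62 and 11.70 at the lowest, median and highest in WT hearts. In the Dp1Tyb hearts it was 11.54, 11.52, 11.38, 11.47 and 11.45, and in the Dp1TybDyrk1a+/+/- hearts 11.59, 11.73, 11.62, 11.65 and 11.59. The highest Dp1Tyb heart was just under the lowest WT heart, and no Dp1Tyb heart overlapped Dp1TybDyrk1a+/+/- hearts. The decrease was 9.78% of the WT level, at a log2 fold change of -0.15 (SE 0.029, adjusted P-value 0.00447), and the log2 fold change from Dp1TybDyrk1a+/+/- was -0.17 (SE 0.033, adjusted P-value 0.0207).

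Kif15, a motor that can stand in for EG5 on the spindle, had log2 fold changes of -0.16 and -0.15 from the WT and Dp1TybDyrk1a+/+/- hearts. Kif23, which encodes MKLP1 of the central spindle, was at -0.09 and -0.12. Kif2c, which encodes the microtubule depolymerase MCAK, was at -0.10 compared to WT (adjusted P-value 0.00902) and at -0.07 compared to Dp1TybDyrk1a+/+/- (0.139), and Kif18a, which dampens chromosome movements, at -0.12 (0.0423) and -0.13 (0.0790). Kif20b, which acts in abscission at the end of cytokinesis, passed only compared to Dp1TybDyrk1a+/+/- (-0.24, SE 0.055, adjusted P-value 0.0424). Its values were 9.99, 9.88, 9.84, 9.93 and 9.91 in Dp1Tyb hearts, 10.10, 10.42, 10.09, 10.08 and 10.04 in Dp1TybDyrk1a+/+/- hearts, and 9.96 to 10.19 in WT hearts, so that Dp1TybDyrk1a+/+/- heart 2 exceeded all others. Kif14, Kif20a, Kif22 and Kifc1 did not pass, with log2 fold changes from WT of -0.10, -0.09, -0.08 and -0.06.

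Of the 5 spindle assembly and microtubule-binding proteins only Prc1 passed, in both comparisons. Prc1 (ENSMUSG00000038943, chr7:80294445-80316259) encodes the protein that cross-links the antiparallel microtubules of the anaphase midzone. It was 11.49, 11.52 and 11.64 at the lowest, median and highest in WT hearts, 11.41, 11.35, 11.35, 11.42 and 11.42 in Dp1Tyb hearts, and 11.51, 11.67, 11.50, 11.61 and 11.55 in Dp1TybDyrk1a+/+/- hearts. Every Dp1Tyb heart was below all 15 others, and the level decreased by 10.1% (log2 fold change -0.15, SE 0.030, adjusted P-value 0.00554) and by 11.6% (-0.18, SE 0.035, adjusted P-value 0.0186). Tpx2, which activates Aurora A on spindle microtubules, Nusap1, Aspm, a protein of spindle poles, and Hmmr had log2 fold changes of -0.09, -0.12, -0.16 and -0.10 compared to WT and of -0.14, -0.20, -0.20 and -0.17 compared to Dp1TybDyrk1a+/+/-. Their adjusted P-values lay between 0.137 and 0.229 in the first comparison and between 0.0520 and 0.101 in the second. All 4 were highest in Dp1TybDyrk1a+/+/- heart 2, at 11.54, 11.08, 11.14 and 11.11.

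All 3 cytokinesis regulators were below 0 in both comparisons with Dp1Tyb hearts, and Racgap1 passed in both. Racgap1 (ENSMUSG00000023015, chr15:99620496-99651656) encodes the GTPase-activating partner of MKLP1 in the centralspindlin complex. It was 11.36, 11.42 and 11.46 at the lowest, median and highest in WT hearts, 11.32, 11.29, 11.28, 11.29 and 11.34 in Dp1Tyb hearts, and 11.39, 11.44, 11.38, 11.47 and 11.41 in Dp1TybDyrk1a+/+/- hearts. Dp1Tyb hearts did not overlap either genotype, with log2 fold changes of -0.11 (SE 0.022, adjusted P-value 0.00675) and -0.11 (SE 0.025, adjusted P-value 0.0304). Anln, which encodes the actin-binding scaffold anillin, and Ect2, the exchange factor that activates RhoA at the furrow, were each at -0.10 compared to WT and did not pass, with adjusted P-values of 0.0679 and 0.0568.

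**Figure D4:**
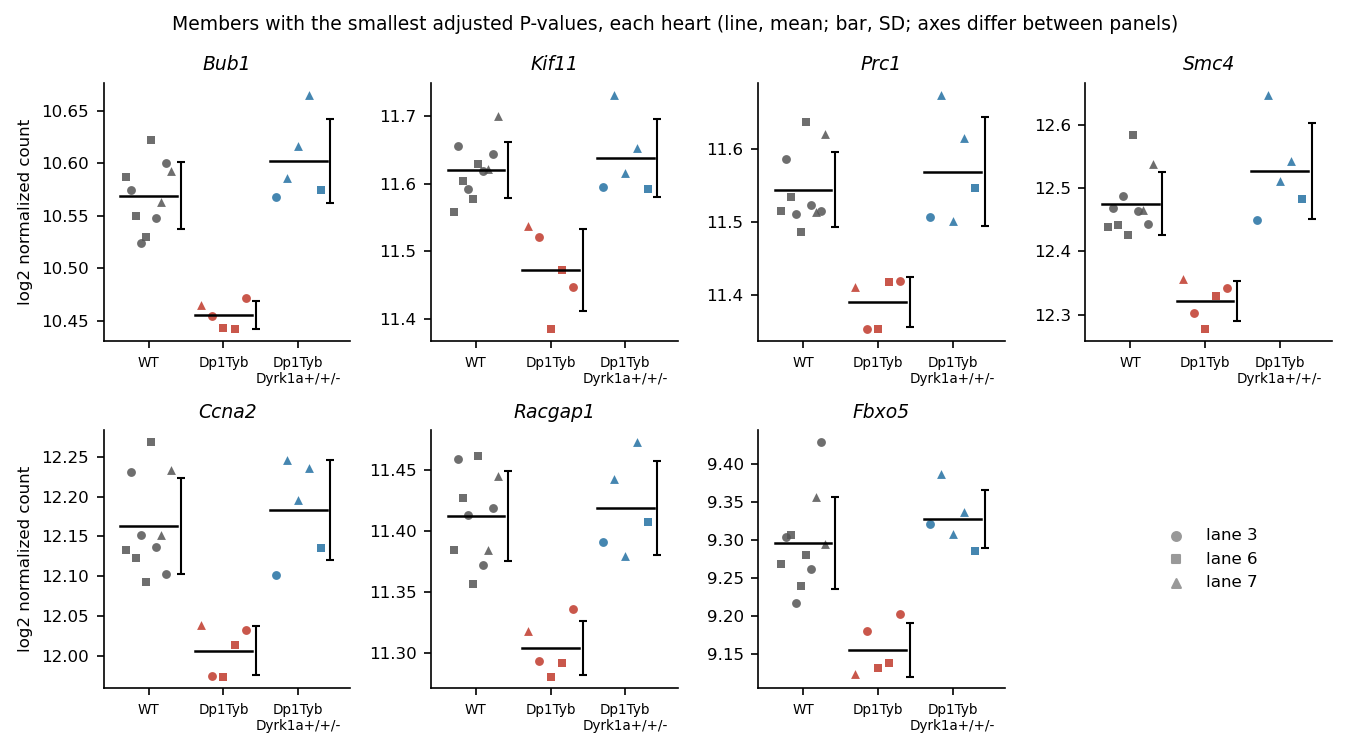
Log2 normalized count (y axis) in each of the 20 hearts by genotype (x axis) for the 7 members that had the smallest adjusted P-values in either comparison with Dp1Tyb hearts, with the lane as the point shape, the mean as a line and the SD as a bar. In each panel the 5 Dp1Tyb hearts lie below every WT heart and every Dp1TybDyrk1a+/+/- heart, and Bub1 spans only 10.44 to 10.47 in Dp1Tyb hearts.

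Among the 7 proteins of mitotic chromosomes, 5 were decreased compared to WT (Smc4, Top2a, Ncapg, Ncapd2 and Smc2) and 3 compared to Dp1TybDyrk1a+/+/- (Smc4, Smc2 and Ncapg). Condensin I is a ring of SMC2 and SMC4 with NCAPG, NCAPD2 and NCAPH, and SMC2 and SMC4 are also in condensin II. Smc4 (ENSMUSG00000034349, chr3:69004738-69034623) was 12.43, 12.46 and 12.58 at the lowest, median and highest in WT hearts, 12.36, 12.30, 12.28, 12.33 and 12.34 in Dp1Tyb hearts, and 12.45, 12.65, 12.51, 12.54 and 12.48 in Dp1TybDyrk1a+/+/- hearts. No Dp1Tyb heart overlapped the others, and the level decreased by 10.1% compared to WT (log2 fold change -0.15, SE 0.030, adjusted P-value 0.00564) and by 13.2% compared to Dp1TybDyrk1a+/+/- (-0.20, SE 0.035, adjusted P-value 0.00913). The remaining subunits were at -0.09 (Smc2), -0.09 (Ncapg), -0.10 (Ncapd2) and -0.08 (Ncaph) compared to WT, and Ncaph missed the threshold with an adjusted P-value of 0.0572.

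Top2a encodes topoisomerase IIα, which untangles sister chromatids. It was 12.99, 13.14 and 13.23 at the lowest, median and highest in WT hearts, 13.02, 12.99, 12.89, 13 and 13.04 in Dp1Tyb hearts, and 13.14, 13.10, 13.15, 13.17 and 13.11 in Dp1TybDyrk1a+/+/- hearts. The lowest WT value was that of heart 6, the next lowest WT heart was at 13.11, and the Dp1Tyb hearts were below that and below all Dp1TybDyrk1a+/+/- hearts. It decreased by 9.43% compared to WT (log2 fold change -0.14, SE 0.031, adjusted P-value 0.0121), and its log2 fold change from Dp1TybDyrk1a+/+/- was -0.14 (SE 0.036, adjusted P-value 0.0519). Mki67 encodes Ki-67, the coat of mitotic chromosomes that is used as a mark of proliferating cells. It was 12.99, 13.09 and 13.27 in WT hearts by the same measures, 12.99, 12.84, 12.81, 12.86 and 12.96 in Dp1Tyb hearts, and 12.99, 13.74, 13.06, 13.11 and 13 in Dp1TybDyrk1a+/+/- hearts. Every Dp1Tyb heart was below every heart of the other genotypes before rounding, and the fold changes, the largest among members at -0.21 and -0.29, also had the largest standard errors (0.086 and 0.100) and did not pass (adjusted P-values 0.232 and 0.133). Dp1TybDyrk1a+/+/- heart 2 alone was above every WT heart. In a fit of only WT and Dp1Tyb hearts Mki67 passed, though not with lane or Xist as a covariate.

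Between hearts of a genotype many members varied together, though not all. After genotype means were removed, the correlation of a member with the mean of the other members over the 20 hearts had a median of 0.43 and ran from -0.38 for Pttg1 to 0.81 for Kif14, and 23 members were above 0.5. Over all tested genes the correlation with the mean over members had a median of -0.02, and 5.69% were above 0.5. These values are descriptive, since hearts share lanes and normalization. Kif11, Plk1, Cenpf and Aurka were at 0.77 or more, and Bub3, Aurkb, Cdk1, Cdc25c, Cdc25b and Kifc1 below 0. Dp1TybDyrk1a+/+/- heart 2 had 12 members below every WT heart (Cdk1, Cdc25b, Cdc25c, Plk4, Bub1b, Cdc20, Cenpa, Spc24, Aurkb, Kif22, Kif2c and Kifc1) and 23 above, with Kifc1 at -0.39 and Mki67 at 0.64 from the WT mean, the extremes of all members and hearts. This library, of quality weight 0.0941, stood apart over all genes as well, with 29.5% of tested genes below every WT heart and 26% above. Of the other 4 hearts of that genotype, heart 4 had 0 below and 17 above, and hearts 1, 3 and 5 had at most 4 below and 3 above. In these 4 hearts 6.86% to 10.8% of tested genes lay below every WT heart and 7.66% to 10.5% above.

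**Figure D5:**
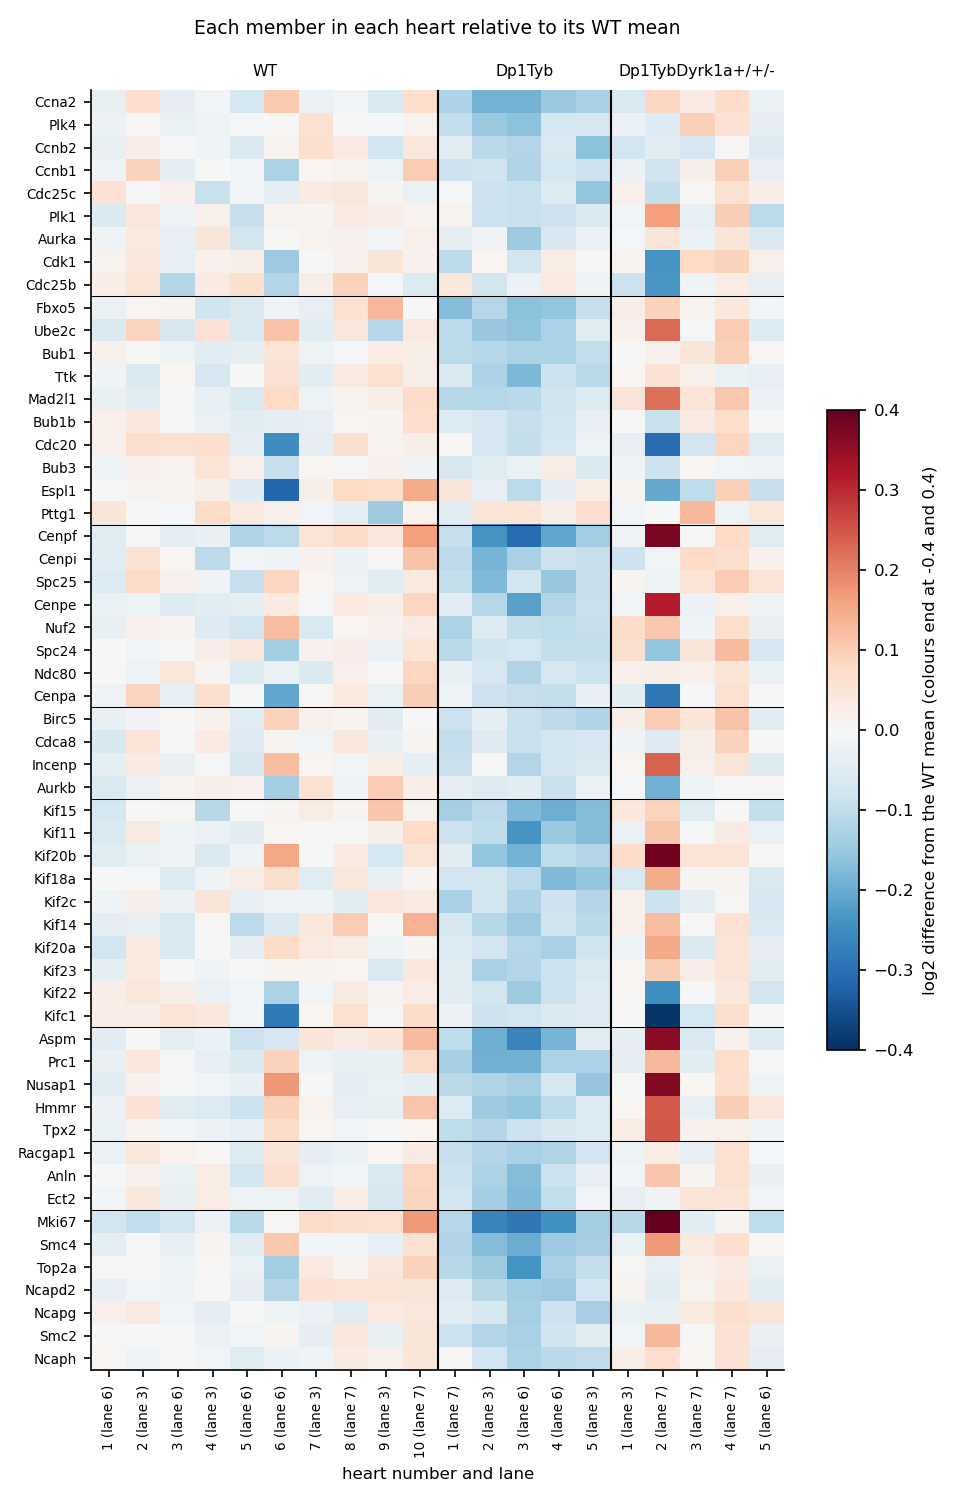
Log2 difference of each member (rows, grouped by role) from its WT mean in each of the 20 hearts (columns, with the lane), blue below and red above, with colours that end at -0.4 and 0.4. The Dp1Tyb block is blue in most rows, and Dp1TybDyrk1a+/+/- heart 2 holds both the deepest blue, Kifc1 at -0.39, and the deepest red, Mki67 at 0.64.

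The wider mitosis programme was followed in 82 further genes listed by function. Of these, 16 (19.5%) were decreased and 1 increased in Dp1Tyb compared to WT hearts, with a median log2 fold change of -0.0703. Over all tested genes, 1.27% were called lower and 1.81% higher in that comparison. Compared to Dp1TybDyrk1a+/+/- hearts 11 (13.4%) were decreased and 0 increased (median -0.0749), against 0.738% and 0.425% of all tested genes. In Dp1TybDyrk1a+/+/- compared to WT hearts 0 were decreased and 1 increased (median 0.00444), against 0.0849% and 0.627%. The increased gene was in each case Mis18a, a centromere protein whose gene lies within the duplication, at 0.22 (SE 0.040, adjusted P-value 0.00309) and 0.20 (SE 0.040, adjusted P-value 0.00923). The 10 decreased genes with the smallest adjusted P-values compared to WT were Ckap2, Spdl1, Melk, Cenph, Knl1, Knstrn, Cdca2, Sgo1, Kif4 and Kntc1. Ckap2, a microtubule-stabilising spindle protein, was at -0.12 (SE 0.022, adjusted P-value 0.00273), Spdl1, which recruits dynein to kinetochores, at -0.12, and Knl1, the kinetochore scaffold that binds BUB1, at -0.16. Sgo1, the protector of centromeric cohesion, was at -0.11. The other 6 lay between -0.16 and -0.10. Of 46 DNA replication genes, which act in S phase, 5 (10.9%) were decreased and 1 increased in Dp1Tyb compared to WT hearts (median -0.0628). Compared to Dp1TybDyrk1a+/+/- hearts 4 (8.7%) were decreased and 0 increased (median -0.0648). The shares over all tested genes are those given for the 82 genes in each comparison. In Dp1TybDyrk1a+/+/- compared to WT hearts 0 were decreased and 1 increased (median -0.00175). Named after their values were seen, those decreased compared to WT were Mcm10, Rrm1, Pola1, Prim1 and Pcna, of which Pola1, Prim1 and Pcna were also decreased compared to Dp1TybDyrk1a+/+/-, and the increased gene was Chaf1b, which the duplication holds.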

How the data were processed

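Polyadenylated RNA of 20 whole E13.5 mouse hearts was sequenced. Per the labels' processing notes the submitters used Trimmomatic 0.36, STAR 2.5.2a, RSEM 1.2.31 and DESeq2 on GRCm38. The deposited values are normalized counts on a log2 scale, in 1 table of 48795 Ensembl genes by 20 hearts, and 0 columns belonged to no sample. The transformation is not named in the sources used here. The table holds no read totals, so depth is unknown and precision rests on the spread between hearts. How reads shared with near-identical copies such as pseudogenes were divided cannot be seen in the table.

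The 3 genotypes were fitted together with limma 3.58.1 (R 4.3.3; lmFit, contrasts, eBayes with trend) over the 15304 genes that averaged 10 or more normalized counts, with Benjamini-Hochberg adjustment over all of them and a threshold of 0.05. Members are said to pass or not by this fit unless another is named. The study used DESeq2, which needs counts, so its test was not repeated. The script was first tested on simulated data, in which 200 of 15304 genes were shifted by 0.3 log2 in Dp1Tyb hearts. In Dp1Tyb compared to WT hearts, 189 of the shifted genes and 13 others were called. That shift is larger than the log2 fold change of any member, so detection of changes of the members' size was not tested.

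Members and lists were chosen with earlier results of these data known. All called members were named, with values by heart for the 6 of smallest adjusted P-value in each comparison and for Ccnb1, Cdk1, Plk1, Aurkb, Cenpa, Top2a, Mki67 and Birc5. Also named were up to 10 called genes of the 82 other mitosis genes, Mis18a, Dyrk1a and the 8 genes outside the lists most like the mean over members. Besides the 46 DNA replication genes, marker lists covered cardiomyocytes, endothelium and endocardium, fibroblasts and cushion mesenchyme, epicardium, smooth muscle, erythroid cells, macrophages, neurons and glia, liver and lung epithelium, and 0 of their tested genes were called in any comparison. Names came from GENCODE M39 and coordinates from RefSeq (GRCm38.p6). Alternatives were filters at 1 and 100 and none, median centring, quantile normalization, limma without trend or robust, quality weights, lane or Xist as covariates, fits of 2 genotypes and leaving out each heart. Leaving out WT heart 6 with Dp1TybDyrk1a+/+/- heart 2, and lane with Xist, were added after the data were seen. Figures used Python 3.11.15 and matplotlib 3.10.9. The values of 1 DNA replication gene, which is counted in its list, are not reported here.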

Additional observations from a re-analysis of the deposited data

Results flagged for a closer look

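In groups of 5 or 10 hearts, a heart was singled out where its gap to the nearest other heart exceeded Dixon's critical value, a rule by which chance alone singles out about 1 group in 20. Over 30 named members and the mean over members, 10 of 93 groups had such a heart, and all values are log2 normalized counts. In Dp1TybDyrk1a+/+/- heart 2, Aurkb was 9.30 (others 9.47 to 9.50) and Cdk1 was 10.72 (others 10.96 to 11.05), both lower, while Kif20b was 10.42 (others 10.04 to 10.10) and Mki67 was 13.74 (others 12.99 to 13.11), both higher. In WT heart 6, Cdk1 was 10.81 (others 10.92 to 11), Cenpa was 10.48 (others 10.66 to 10.79) and Top2a was 12.99 (others 13.11 to 13.23), all lower, while Birc5 was 10.31 (others 10.17 to 10.24), higher. These are also the hearts with the 2 lowest quality weights. Plk4 was 10.28 in WT heart 7 (others 10.19 to 10.23), and Ccnb1 was 11.33 in Dp1Tyb heart 3 (others 11.37 to 11.38). The mean over members singled out no heart.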

How the results depend on the processing

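Decreased members numbered 20 in Dp1Tyb compared to WT hearts and 17 compared to Dp1TybDyrk1a+/+/- hearts. These counts became 45 and 41 with quality weights, 12 and 2 with Xist as a covariate, 34 and 0 in fits of only the 2 genotypes compared, 43 and 29 without WT heart 6 and Dp1TybDyrk1a+/+/- heart 2, and 5 and 0 with lane and Xist. The share of all tested genes called lower, 1.27% and 0.738% at first, moved as well, to 4.6% and 4.57% with weights, 0.49% and 0.0588% with Xist, 2.35% and 0.00653% in fits of 2 genotypes, 3.73% and 2.6% without the 2 hearts, and 0.372% and 0.00653% with lane and Xist. Against Dp1TybDyrk1a+/+/- they also became 9 with a filter at 1, 8 with no filter and 2 with lane as a covariate, where 0.301%, 0.15% and 0.111% of all tested genes were called lower. The cause of these shifts was not tested, other than that laxer filters adjust over more genes. Leaving out 1 heart at a time gave 10 to 36 and 2 to 26 calls. The share of all tested genes called in those fits is not given here. Increased members numbered 0 in all 3 comparisons under every alternative, and so did decreased members in Dp1TybDyrk1a+/+/- compared to WT hearts, with 0 or 1 at an unadjusted p under 0.05 on the lower side in the fits that did not leave out 1 heart. Median centring moved the calls over all genes in Dp1Tyb compared to Dp1TybDyrk1a+/+/- hearts from 113 lower and 65 higher to 177 lower and 48 higher. Median log2 fold changes without 1 heart stayed at -0.103 to -0.0896, -0.13 to -0.108 and 0.00733 to 0.0279 for Dp1Tyb compared to WT, Dp1Tyb compared to Dp1TybDyrk1a+/+/- and Dp1TybDyrk1a+/+/- compared to WT. No sign of a called member turned. Uncalled values near 0 in Dp1Tyb compared to Dp1TybDyrk1a+/+/- hearts did: Cenpa turned to 0.003 with quantile normalization, 0.003 with lane, 0.010 with lane and Xist and ran from -0.068 to 0.019 without 1 heart, Aurkb from -0.046 to 0.003 and Cdk1 from -0.079 to 0.003. No paired analysis was possible because the labels carry no shared replicate numbers.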

Other observations

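Over the 20 hearts, with genotype means removed, the genes outside the lists whose values followed the mean over members most closely were Lig3 and Uggt1 (r = 0.87), Tgfbr3 and Fry (0.84), Ctc1, Tanc1 and Nbea (0.83) and Hmbox1 (0.82). These correlations are descriptive, since hearts share lanes and one normalization. None of the 8 passed limma's test in any comparison, with log2 fold changes in Dp1Tyb compared to WT hearts from -0.10 for Fry to 0.13 for Tgfbr3 (adjusted P-value 0.0520). Lig3, which encodes a DNA ligase, was at -0.03 there, in contrast to the median of -0.0966 over members.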
